A study of Homo sapiens with 4 samples.

Results

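The regions described here were the rows of the Calu3 BACH1 peak list that lay close together in stretches where the 16HBE14o- list had no peak. The genome (build hg19) was divided into fixed windows of 100 kb. A window was kept when at least 3 Calu3 summits and no 16HBE14o- summit fell in it, and chromosomes 3, 20, X and Y were left out. This gave 218 windows with 792 Calu3 rows, of 10246 rows in the Calu3 list and 13661 in both lists. The rows were chosen by the peak positions of both lists, and their strengths come from the same reads. No independent measure was available, so all values are descriptions, without a test.

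The study mapped the transcription factor BACH1 by chromatin immunoprecipitation sequencing (ChIP-seq) in 4 samples, with 2 replicates in each of 2 human airway lines. Calu3 is a lung adenocarcinoma line and 16HBE14o- a line of bronchial epithelial cells; both were grown in DMEM with fetal bovine serum, and the labels name no treatment or genetic change. Each line stands for 1 origin, and the authors deposited 1 list per line from its pair of replicates, so no spread between replicates can be given. The sources used here name neither the read depth nor a control, and copy number was not measured. A window without a 16HBE14o- summit is therefore one where none was listed, not one shown to be unbound.

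BACH1 is a haem-binding basic leucine zipper repressor. It pairs with small MAF proteins at antioxidant response and MAF recognition elements, where the activator NRF2 also binds with small MAF partners, and it holds down genes of haem breakdown, iron storage and detoxification until haem or oxidative stress displaces it. Several elements near one gene are a known arrangement at such targets. A row of the list is a stretch of DNA that the authors listed as a peak. Its fold enrichment is the authors' value for the excess of ChIP reads over background. Its q is the authors' p-value after correction for many tests. For 264 of the 792 rows q was 0.05 or more. A place in the list therefore does not by itself show an excess after correction.

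Most of the groups were small. Of the 218 windows, 161 held 3 rows, 32 held 4 and 17 held 5. The remaining 8 windows held 6, 6, 7, 7, 7, 8, 25 and 30 rows, and the pair with 25 and 30 lay side by side on chromosome 18. Just below the density limit stood 747 windows with 2 Calu3 rows and no 16HBE14o- summit, and just outside the other limit stood 151 windows with 3 or more Calu3 rows and exactly 1 16HBE14o- summit. On the same chromosomes 463 windows held 3 or more Calu3 rows, so that 47.1% of them (95% exact binomial interval 42.5 to 51.7) lacked a 16HBE14o- summit. Over all 5870 windows with a Calu3 row the share was 74.6%. Since the rule used both lists, nothing is read from that comparison. Intervals here and below cover counting error only, and rows in groups are not independent of one another.

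The rows were weak for the list. Their median fold enrichment was 3.61 (95% interval from order statistics 3.51 to 3.78), with quartiles of 2.85 and 5.36 and a range from 1.59 to 28.2. All 8193 Calu3 rows on the same chromosomes had a median of 4.29. A q under 0.05 was listed for 528 of the 792 rows (66.7%, 95% exact binomial interval 63.3 to 69.9), against 76.4% of the 8193. The lower 50% of the whole list by fold enrichment held 473 of the rows (59.7%), while 17 were among its 500 strongest, each in a window of its own, and 2 among its 100 strongest. Of the 2049 weakest rows on these chromosomes 15.1% lay in the windows described, against 6.49% of the 2048 strongest. A run of 5 adjacent windows on chromosome 18, described below, made up part of this weakness. Without it the median was 3.82, 71.4% of the rows had a q under 0.05, and the share of the weakest rows was 11.9%. The 4909 rows in windows of 1 or 2 rows without a 16HBE14o- summit had a median of 4.12, and 74.6% had a q under 0.05.

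Rows were weaker in windows of 4 or more rows than in windows of 3. In windows of 3 rows the median fold enrichment was 4.12, and 363 of 483 rows (75.2%) had a q under 0.05. Windows of 4 or 5 rows had a median of 3.37, with 133 of 213 rows (62.4%) under 0.05. In windows of 6 or more rows the median was 2.65, and 32 of 96 rows (33.3%) passed. Windows of 3 were thus close to the 1494 rows just below the density limit, whose median was 4.11 and of which 75.2% had a q under 0.05. Of the 96 rows in the fullest windows, 62 came from chromosome 18. The other 34, in 5 windows, had a median of 3.26, and 22 of them (64.7%) passed. Outside chromosome 18 the fullest windows were thus close to those of 4 or 5 rows.

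**Figure D1:**
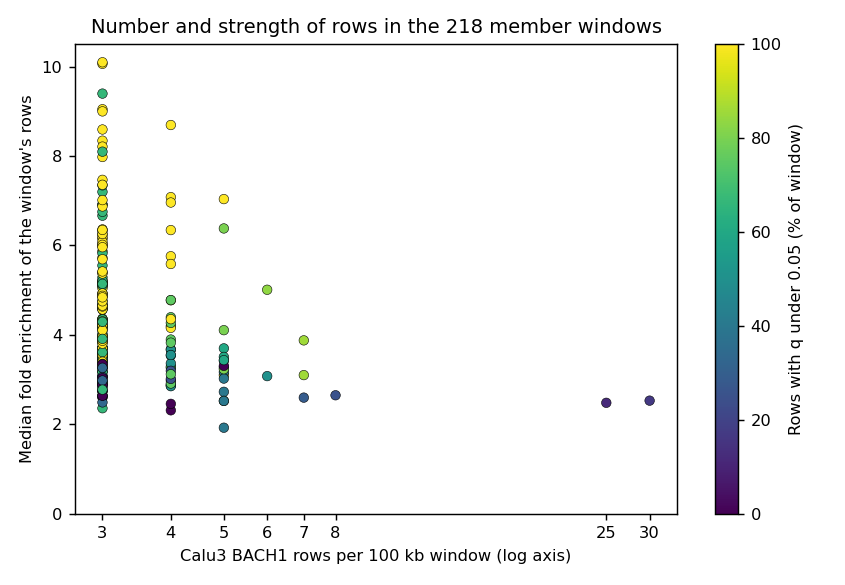
Each point is 1 of the 218 windows of 100 kb. The horizontal axis (log scale) gives the number of Calu3 rows in the window, the vertical axis their median fold enrichment, and the colour the percent of them with a q under 0.05. The highest medians, near 10, are in windows of 3 rows, and the windows of 25 and 30 rows lie near 2.5.

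Within a window the rows were unequal. The strongest row of each window had a median fold enrichment of 6.28 (interval 5.75 to 6.69), the second 4.06 (3.83 to 4.35) and the third 3.17 (3.01 to 3.26). The order itself is fixed by the ranking; the size of the step varied. The strongest row exceeded the second by a median factor of 1.29 (quartiles 1.09 and 1.85). It did so by at least 2 times in 46 windows and by at least 3 times in 16, while in 57 windows the strongest pair differed by less than 1.1 times. Of the 218 strongest rows 206 had a q under 0.05, against 322 of the 574 others. Since q comes from the same reads as the ranking, nothing is read from that contrast. All rows passed in 86 windows, some passed in 120, and none passed in 12, of which 4 lay on chromosome 18.

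Dense Calu3 windows that did hold a 16HBE14o- summit differed most in their leading row. Over these 245 windows, with 876 rows, the strongest row had a median fold enrichment of 9.66 (interval 8.89 to 10.4), the second 4.75 (4.54 to 5.11) and the third 3.51 (3.29 to 3.69). The gap to the windows without a 16HBE14o- summit was thus 3.38 fold units for the strongest row, 0.688 for the second and 0.340 for the third. Among windows of exactly 3 rows the strongest rows had medians of 9.73 with and 6.35 without a 16HBE14o- summit. The second rows had 4.53 and 4.19, and the third 3.17 and 3.06. Over all their rows, dense windows had medians of 4.41 with and 3.61 without a 16HBE14o- summit. A difference was not limited to dense windows. All rows in windows of 1 or 2 Calu3 rows had medians of 5.52 with and 4.12 without a 16HBE14o- summit, farther apart than those of all rows in dense windows. The rule used the 16HBE14o- list to part the dense windows, so the gap between them was not tested.

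**Figure D2:**
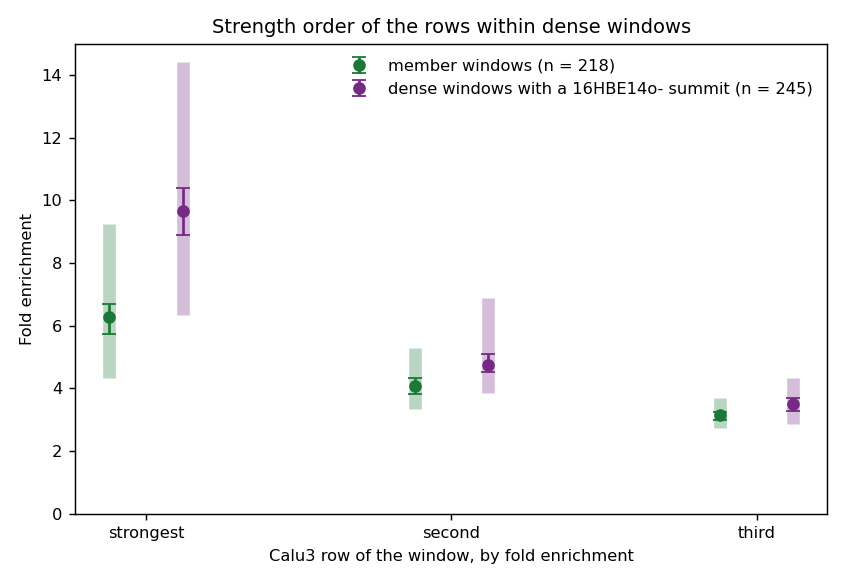
Fold enrichment of the strongest, the second and the third Calu3 row of each dense window. Points are medians with 95% order-statistic intervals (thin bars), and the wide pale bars run from the lower to the upper quartile; green stands for the 218 windows without and purple for the 245 windows with a 16HBE14o- summit. The medians of the strongest rows, 6.28 and 9.66, lie farther apart than those of the rows that follow.

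The strongest row of all lay on chromosome 2 at chr2:240169062-240169708, with a fold enrichment of 28.2 and rank 56 in the list. A row of fold enrichment 2.83 had its summit 388 bp away, and the third row, of 7.35, stood 27.8 kb farther on. The window thus held 1 row of high, 1 of middle and 1 of low strength. The nearest 16HBE14o- summit was 5.05 kb from the row of 7.35, across the window boundary, and 32.9 kb from the strongest row.

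The next strongest row lay far from any 16HBE14o- peak. At chr5:146689843-146690371 the fold enrichment was 26.9, the rank 68 and the −log10 p 169, the highest of the 792. Both neighbours, within 7.08 kb, had fold enrichments of 2.64 and 2.54. This was the largest step between first and second row in any of the windows, 10.2 times. The nearest 16HBE14o- summit was 1.13 Mb away.

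The other rows of the 10 strongest were spread over chromosomes 2, 5, 6, 7, 8, 9 and 13. Those at chr13:27757042-27757549, chr7:148032016-148032443 and chr2:120566141-120566699 had fold enrichments of 23.1, 20.4 and 19.3. The row at chr5:71228266-71228952, with 18.5, belonged to the window with the highest median, where the other values were 10.1 and 3.56. Rows at chr9:20512110-20512523, chr6:52906947-52907289, chr8:140289491-140289878 and chr7:32708740-32709250 completed the set with 17.8, 17.2, 16.9 and 16.8. All 10 were the strongest of their window, and 9 of the 10 stood in windows of 3 rows. Rows chosen for strength will mostly lead their window, and 161 of all 218 windows held 3 rows. Nothing is therefore read from these counts.

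The longest strong group was a run of 3 adjacent windows on chromosome 10, from 4900001 to 5200000. Its 14 rows reached from a first summit at 4983898 to a last at 5190605 and had a median fold enrichment of 7.39, with 13 under a q of 0.05. The fixed windows set the end of the run, and the next Calu3 summit lay 71.7 kb after it. A further window kept by the rule, chosen after its values were seen, reached from 5300001 to 5400000. It held 4 rows with a median of 7.08, all under a q of 0.05. The files name no genes and no hg19 annotation was used here, so these rows were not assigned to genes. As background, this part of the short arm of chromosome 10 is known to hold the AKR1C genes, a row of aldo-keto reductases that reduce steroids and reactive carbonyls and that NRF2 is known to activate.

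In the first window of this run the fold enrichments were 12.3, 6.32 and 6.06, all within 11.9 kb. In the second they were 8.46, 4.35, 13.2 and 8.92 in order along the chromosome. The third held 7 rows, with values of 2.91, 12.0, 3.51, 15.6, 3.88, 3.51 and 8.90. Strong and weak rows lay interspersed, and the run had at least 1 row above 12 in every window. The strongest, at chr10:5121021-5121366, ranked 377 in the list. A row of 12.0 at chr10:5113891-5114348 had weaker rows at both sides, with summits 479 and 628 bp away. The nearest 16HBE14o- summits lay 237 kb before and 940 kb after the run.

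A second strong group of this kind lay on chromosome 7 from 134200001 to 134300000. Its 5 rows had fold enrichments of 13.1, 12.0, 3.56, 5.61 and 7.04, all with a q under 0.05. The first and second, at chr7:134200655-134200970 and chr7:134211944-134212283, ranked 576 and 705. As background with the same limit, this part of chromosome 7 is known to hold AKR1B10, another aldo-keto reductase that NRF2 is known to activate. A 16HBE14o- summit lay in a flanking window, 67.2 kb from the first row.

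In 2 further windows with many rows, 1 row led the others. On chromosome 2 from 161000001 to 161100000, 6 rows had fold enrichments of 5.42, 5.20, 3.54, 4.82, 11.9 and 2.47, and 5 passed a q of 0.05. On chromosome 7 from 36300001 to 36400000, 6 rows had 3.70, 2.34, 7.95, 2.03, 2.55 and 3.60, and 3 passed. The leading row exceeded the second 2.19 times in the former and 2.15 times in the latter. No row led in this way on chromosome 5 from 173200001 to 173300000, where the 5 rows ranged from 2.53 to 9.64, with 4 under 0.05 and a step of 1.22 times between the strongest pair. This window of chromosome 5 was likewise named among the windows of 5 rows by its high median fold enrichment.

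After the window on chromosome 5 with the median of 10.1, the highest medians were in further windows of 3 rows. Chromosome 2 from 228300001 to 228400000 had a median of 10.1 and a range from 3.49 to 10.3. Chromosome 11 from 700001 to 800000 had 9.40, chromosome 18 from 42700001 to 42800000 had 9.05 and chromosome 6 from 4400001 to 4500000 had 8.998. In 4 of these 5 windows every row had a q under 0.05, and on chromosome 11 it was 2 of 3. Of all 218 windows, every row passed in 86. The 5 windows were chosen by values from the same reads as q, so nothing is read from that contrast. The 16HBE14o- list came within 35.8 kb of a row on chromosome 2 and 43.9 kb of one on chromosome 6, while on chromosome 18 it came no closer than 2.99 Mb.

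A long group on chromosome 18 had many rows of low strength throughout. This run of 5 adjacent windows, from 75600001 to 76100000, held 3, 7, 25, 30 and 3 rows, 68 in all or 8.59% of the 792. Their median fold enrichment was 2.56 (interval 2.46 to 2.67), with a range from 1.73 to 3.90, and 11 of the 68 (16.2%, 95% exact binomial interval 8.36 to 27.1) had a q under 0.05. The strongest of the run, at chr18:75774551-75774818, ranked 5639. No row of the run thus reached the median of the Calu3 list, 4.13.

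The rows of this run had no clear leader. In the window of 30 rows the fold enrichments went from 1.73 to 2.91, and in the window of 25 from 2.11 to 3.21. The strongest exceeded the second 1.02 and 1.06 times. Neighbouring summits of the 55 rows in these windows were a median of 2.59 kb apart, with a range from 268 bp to 20.2 kb, and 43 of the 54 distances were under 5 kb. From 75840001 to 75940000 every step of 10 kb held between 2 and 5 rows. A band of fold enrichment from 2.3 to under 2.8, around the quartiles of the run (2.35 and 2.76), held 43 of its rows. Their median −log10 p was 3.74 (range 2.96 to 4.92). It was 3.53 (2.42 to 16.0) for 97 of the other rows described. For 628 remaining Calu3 rows on the same chromosomes it was 3.37 (2.03 to 21.7). The ranges overlapped, and the differences were not tested.

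The run was the last group of peaks on its chromosome in the Calu3 list. No Calu3 row followed its final summit at 76021759, and 255 rows preceded it. The 16HBE14o- list had 63 rows on chromosome 18, all before the run, and the last of them lay 769 kb before its first summit. The absence of 16HBE14o- rows was therefore not limited to the dense windows but held for the whole rest of the chromosome. In the 10 Mb before the run the Calu3 list held 43 rows, 0.430 per window on average and at most 4, with a median fold enrichment of 3.41, and 27 of them (62.8%) had a q under 0.05. Within that stretch the dense windows without a 16HBE14o- summit, 3 in number, held 3, 4 and 3 rows from 74700001, 74900001 and 75200001 onwards, none with a q under 0.05.

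**Figure D3:**
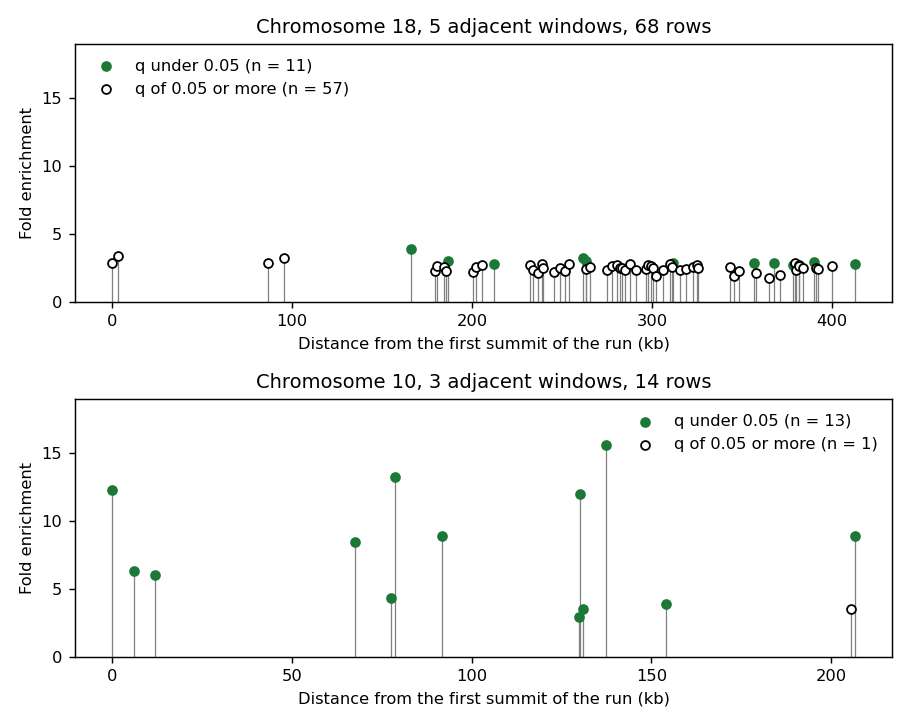
Fold enrichment of each Calu3 row (vertical axis) against the distance of its summit from the first summit of the run in kb (horizontal axis), for the run of 5 windows on chromosome 18 (top) and that of 3 windows on chromosome 10 (bottom), on the same vertical scale. Filled points have a q under 0.05 and open points 0.05 or more; the 68 rows of chromosome 18 stay between 1.73 and 3.90, and the 14 of chromosome 10 reach from 2.91 to 15.6.

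Similar groups of weak rows occurred at a smaller scale. The 8 rows on chromosome 10 from 47600001 to 47700000 had fold enrichments of 2.28, 3.39, 2.51, 2.75, 2.04, 3.13, 2.91 and 2.55, and 2 passed a q of 0.05. On the same chromosome 4 rows from 46900001 to 47000000 had 2.08 to 2.46, and none passed. The nearest 16HBE14o- summits to these windows were 1.52 Mb and 0.876 Mb away.

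A few rows, chosen after their values were seen, combined a low fold enrichment with a high −log10 p. Fold enrichment was under 3 in 242 of the 792 rows, with a median −log10 p of 3.53. The −log10 p exceeded 10 in 5 of them, and in 14 of the 2041 such rows of the whole list. On chromosome 16 from 33900001 to 34000000, 7 rows had fold enrichments of 3.08, 3.38, 3.14, 6.35, 2.71, 2.58 and 3.10. The last 4 stood within 3.66 kb of one another and had −log10 p values of 25.2, 16.0, 13.0 and 10.4. Those 7 rows were the only members on chromosome 16, and no 16HBE14o- summit lay within 2.73 Mb.

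On chromosome 17 rows of this kind lay near one another. Between 37761419 and 38614507, 7 Calu3 rows had a fold enrichment under 3 and a −log10 p over 10, and 1 of them, at chr17:38614287-38614507, belonged to the groups described (fold enrichment 2.47, −log10 p 11.0). The 5 rows from 38400001 to 38500000 had fold enrichments of 3.80, 3.10, 2.11, 3.51 and 2.55 and −log10 p values of 17.96, 17.6, 5.48, 17.6 and 5.86. The 5 from 38600001 to 38700000 had 1.89, 2.09, 2.47, 1.89 and 1.92. Every one of these 10 rows was below the median fold enrichment of the list. Among the 792 rows, the others of the kind outside chromosome 16 lay at chr17:33478032-33478405 (fold enrichment 2.25, −log10 p 14.9) and chr2:133015093-133015373 (2.53 and 12.1). At chr1:156186193-156186686 a fold enrichment of 7.92 went with a −log10 p of 144, the second highest of the 792.

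The spread of the summits within a window varied widely. The summits of a window spanned a median of 42.6 kb (quartiles 24.2 and 66.2), from 1.31 to 97.3 kb. They spanned under 10 kb in 14 windows and over 80 kb in 27. The 574 distances between neighbouring summits of a window had a median of 10.05 kb (quartiles 2.77 and 26.0). Of these, 68 (11.8%), in 51 windows, were under 1 kb. The 131 rows with such a close neighbour had a median fold enrichment of 3.23, against 3.61 for all 792 rows. Of the 131, 73 (55.7%) had a q under 0.05, against 66.7% of the 792. Some of the close rows lay in the weak run on chromosome 18. The weaker rows of a window stood a median of 20.8 kb from its strongest row, and 27 of these 574 rows stood within 1 kb of it.

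The closest pairs were mostly pairs of weak rows. Summits 249 bp apart on chromosome 11 belonged to rows at chr11:47429689-47429878 and chr11:47429946-47430129, with fold enrichments of 2.81 and 2.93. Pairs 268 bp apart on chromosome 18, 280 bp apart on chromosome 5 and 301 bp apart on chromosome 17 had values of 2.69 and 2.66, 3.17 and 2.25, and 2.90 and 2.95, respectively. On chromosome 12, 295 bp separated a row of 7.14 at chr12:107742701-107742998 from a row of 2.49. The most compact window, chosen after its values were seen, lay on chromosome 10 from 4300001 to 4400000, where 3 rows of 6.12, 3.40 and 2.29 spanned 1.31 kb.

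Rows were narrow, with a median width of 230 bp (153 to 767), against 237 bp for all Calu3 rows on these chromosomes. The strongest rows of the windows had a median of 282 bp and the other members 210 bp. Width comes from the same reads as the ranking, so nothing is read from that contrast either. Together the 792 rows covered 200.3 kb.

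The distance to 16HBE14o- peaks varied widely. The nearest 16HBE14o- summit was a median of 385 kb away (quartiles 131 and 1076 kb), from 3.57 kb to 6.15 Mb. It was over 1 Mb away for 236 rows. For 128 rows it was under 100 kb away, across a window boundary, and for 4 under 10 kb. A 16HBE14o- summit stood in a flanking window in 67 of the 218 windows. Their 220 rows had a median fold enrichment of 3.88 (interval 3.56 to 4.19). In the other 151 windows, with 572 rows, the median was 3.54 (interval 3.42 to 3.70). The intervals overlapped, and the 572 rows included all 68 of the weak run on chromosome 18, whose median was 2.56. Whether strength goes with a 16HBE14o- summit in a flanking window was not tested. The windows nearest to a 16HBE14o- summit, chosen after their values were seen, were chromosome 6 from 139600001 to 139700000 (3.57 kb), the window of the strongest row on chromosome 2 (5.05 kb) and chromosome 1 from 156100001 to 156200000 (7.36 kb).

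All 20 chromosomes kept had at least 1 such window. Chromosome 18 had the highest share of its Calu3 rows in them, 99 of 323 (30.7%, 95% exact binomial interval 25.7 to 36.0). Without the run of 5 windows the share was 31 of 255 (12.2%, 8.41 to 16.8), close to chromosome 10 with 14.4% (67 of 466), chromosome 19 with 13.8% (31 of 225), chromosome 7 with 13.8% (84 of 610) and chromosome 5 with 12.5% (85 of 679). The lowest shares were 1.46% on chromosome 15 (3 of 206, 0.301 to 4.20), 3.54% on chromosome 16 (7 of 198) and 4.76% on chromosome 21 (4 of 84). By its rule a 16HBE14o- summit takes a window out. The chromosomes that follow are examples of shares beside the numbers of rows in both lists, and were not picked by a rule. Chromosome 14 had 4.91% (13 of 265, 2.64 to 8.24) with 219 16HBE14o- and 265 Calu3 rows, and chromosome 10 had 14.4% with 87 and 466. Chromosome 22 had 12.8% with 68 and 125, and chromosome 4 had 5.16% with 109 and 407. Among the lowest shares, chromosome 15 had 94 and 206 rows and chromosome 16 had 121 and 198. What sets the share was not tested.

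**Figure D4:**
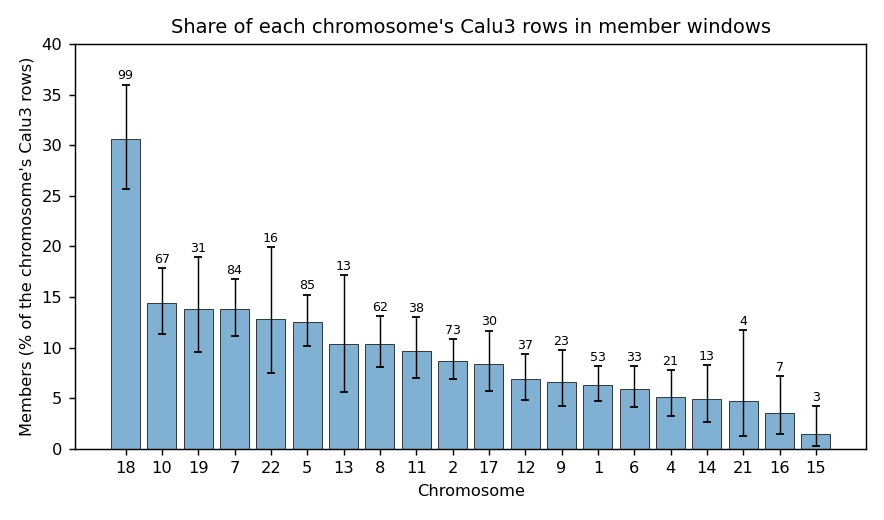
Bars give, for each of the 20 chromosomes kept, the percent of its Calu3 rows that lie in windows of 3 or more Calu3 rows without a 16HBE14o- summit; error bars are 95% exact binomial intervals and numbers above them count those rows. Chromosome 18 stands at 30.7%, and the others run from 14.4% down to 1.46%.

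Adjacent windows were rare. Of the 218 windows 18 had such a neighbour, in 7 runs with 117 rows. Beside the runs on chromosomes 18 and 10 there were 5 pairs, 2 of them on chromosome 2 and 1 each on chromosomes 5, 8 and 11. Their medians ranged from 2.89 on chromosome 5 (176100001 to 176300000, 8 rows) to 5.13 on chromosome 8 (107000001 to 107200000, 6 rows). All rows passed a q of 0.05 in the pairs on chromosomes 8 and 11 and in that on chromosome 2 from 169800001 to 170000000. In contrast, 3 of 8 did so in the pair on chromosome 5 and 5 of 8 in that on chromosome 2 from 47000001 to 47200000.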

How the data were processed

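Per the labels' protocols, sonicated nuclear chromatin was precipitated with a rabbit anti-BACH1 antibody and sequenced on an Illumina Hi-Seq. Per the labels, replicates were combined through the irreproducible discovery rate into 1 list per line. Coordinates are on hg19, per the submitters' processing notes. For the aligner, caller and filters, nothing is given in the sources used here. The deposited Calu3 columns are a fold enrichment (a ratio, read as such from the format), a −log10 p, a −log10 q and a browser score. For 16HBE14o- the deposited signal and score columns are on unstated scales; from that list only positions were used. Widths and columns differ between the lists, so callers or thresholds may differ too.

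Rows were assigned to windows by summit. Shares carry 95% exact (Clopper-Pearson) intervals and medians 95% order-statistic intervals. No test was run, since no measure was independent of the choice of rows. The rows, windows and settings were chosen with earlier results of these data known. Regions named are the 10 windows with most rows, the 5 with the highest median, runs of 3 or more windows, the 10 strongest rows and the 5 closest pairs, with others as stated. Ties in the number of rows were broken by the higher median fold enrichment. The planned motif, repeat and gene analyses needed an hg19 genome or annotation, which was not used here, so no sequence is printed. Coordinates are 1-based. Python 3.11.15, numpy 2.4.6, scipy 1.17.1 and pandas 2.3.3 were used, and the window rule was tested on simulated data. In 7 planned and 2 added alternatives, window size, boundaries, density, q, flanks, summit position and chromosomes were changed.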

Additional observations from a re-analysis of the deposited data

How the results depend on the processing

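Window size, density and q set the size of the group. Windows of 50 kb gave 125 windows and 455 rows, with a median fold enrichment of 3.42 and 37.1% at a q of 0.05 or more, against 218, 792, 3.61 and 33.3%. Windows of 200 kb gave 361, 1335, 3.83 and 30.04%. Requiring 4 rows gave 57, 309, 3.14 and 46.6%. Counting only Calu3 rows with a q under 0.05 gave 111 windows and 360 rows with a median of 4.67. In settings added after seeing the data, leaving out the chromosome 18 run moved the median to 3.82 and the share to 28.6%, and keeping chromosomes 3, 20 and X gave 342, 1260, 3.41 and 40.2%. Boundaries shifted by 50 kb gave 224 windows and 813 rows, of which 449 were among the 792 (56.7% of these and 55.2% of the shifted set), so membership depended on the boundaries although the counts did not. Leaving out windows with a 16HBE14o- summit in a flank moved the counts by less than 1.5 times and kept the median and the share within their intervals, and row midpoints gave the same 792 rows. No paired analysis was possible because the replicates of a line share 1 deposited list. Read depth is unknown.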
